A study of Mus musculus with 13 samples.

Results

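The 45 genes described here are interferon-stimulated genes, chosen as the rows of the deposited count tables whose gene symbol is on a list of 45 names. Each name matched 1 row among the 55421 genes of the joined table. All 45 passed the filter on low counts, which 19289 genes passed. Read counts were analysed for 10 bulk RNA-seq libraries of bone marrow hematopoietic stem and progenitor cells (HSPCs) from mice of 4 genotypes. There were 2 libraries of wild type mice, 2 of Setd2 knockout mice, 3 of mice with mutated Srsf2 and 3 of mice with both changes, the double mutant. Setd2 encodes a histone H3 methyltransferase and Srsf2 a splicing factor that is recurrently mutated in myelodysplastic syndrome. For the bulk libraries the labels give the genotype, the tissue and the cell type, and call them mRNA libraries. The protocol text, which speaks of the 3 single-cell samples not analysed here, names Mx1-Cre, the Srsf2 P95H allele in heterozygous form, floxed Setd2, induction with pIpC, a sort for lineage-negative c-Kit-positive cells and a time of 4 weeks after induction in a transplant model. It lists Mx1-Cre in the wild type animals too, and it lists no mice with floxed Setd2 alone. Mx1-Cre is a recombinase placed under the promoter of an interferon-inducible gene, and pIpC is a double-stranded RNA mimic that induces interferon. Whether the bulk libraries share these steps, and whether replicates came from separate mice, is not given in the sources used here, so p-values measure the spread between these libraries, which may be technical.

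Interferons are secreted cytokines that cells release after sensing foreign or misplaced nucleic acid. Type I interferons bind the receptor pair IFNAR1 and IFNAR2, whose kinases JAK1 and TYK2 phosphorylate STAT2, which joins IRF9 in a complex that binds the interferon-stimulated response element (ISRE) in promoters. The genes switched on in this way include sensors of viral RNA, the transcription factors that sustain the response, the ubiquitin-like protein ISG15, and enzymes and membrane proteins that block viral replication. In bone marrow, interferon is known to drive quiescent stem cells into cycle.

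The list was compared with promoter sequence because the ISRE is the shared element of this class of genes. In the RefSeq promoter table (GRCm38.p6, 250 bases before to 50 after each start), 35 of the 45 genes had an entry, with 42 promoters. The ISRE core, GAAANNGAAA or its complement TTTCNNTTTC on the other strand, stood in 22 of the 42 promoters (52.4%), against 1131 of the 32851 promoters in the table (3.44%). By gene, 21 of 35 held it, against 3.99% of all genes in the table. With 1 to 3 bases allowed between the repeats, 26 of 35 genes held it, against 9.91% of all genes in the table. The interferon-gamma element TTCNNNGAA, which is the same on both strands, stood in 9 of 42 (21.4%), against 8.3% of all promoters. A match is a description of the letters and not a measured binding site.

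The windows of the genes on which the results turn are shown 5′ to 3′ along the gene's strand, with the core in capitals and 5 flanking bases on each side. Overlapping cores were joined, so a longer run of capitals holds more than 1 copy.
Isg15: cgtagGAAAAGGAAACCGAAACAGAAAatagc
Rsad2: ccaacTTTCATTTTCagaaa
Oas3: gaggaGAAAACGAAAgtgaa
Oas1a: ctcggGAAATGGAAACTGAAAatcta
Oas1g: ctcggGAAATGGAAACTGAAAatcta
Ifit1, farther window: ttcagTTTCACTTTCcagtc
Ifit1, nearer window: ctcagTTTCAGTTTCtcact
Ifit3 and Ifit3b, farther window: gtaagTTTCACTTTCctctt
Ifit3 and Ifit3b, nearer window: gtctgTTTCAGTTTCtactt
Slfn5: aaagtGAAAAAGAAAaaaaa
Ifitm3, first window: ttcagGAAAAGGAAActtct
Ifitm3, second window: tctgaGAAACCGAAActgcc
Bst2: tccagGAAAATGAAACTGAAAggctg
Stat2: cctggTTTCAGTTTCctttc
The Isg15 window lies at chr4:156200870-156200901 on the minus strand, and its capitals cover bases -78 to -57 from the start site. The Rsad2 window lies at chr12:26456558-26456577 (minus strand) and the Oas3 window at chr5:120777720-120777739 (minus strand). The windows of Oas1a and Oas1g, at chr5:120907525-120907550 and chr5:120887611-120887636 (both minus strand), have identical letters. So do the windows of Ifit3, at chr19:34583368-34583387 and chr19:34583402-34583421, and those of Ifit3b, at chr19:34607764-34607783 and chr19:34607798-34607817 (all plus strand). The Ifit1 pair lies at chr19:34640780-34640799 and chr19:34640799-34640818 (plus strand), Slfn5 at chr11:82951942-82951961 (plus), the Ifitm3 pair at chr7:141010728-141010747 and chr7:141010711-141010730 (minus, within the first bases of the transcript), Bst2 at chr8:71537582-71537607 (minus) and Stat2 at chr10:128270271-128270290 (plus). In the GENCODE M21 annotation (GRCm38) the genes themselves span chr4:156199424-156200818 for Isg15, chr12:26442746-26456452 for Rsad2, chr5:120753098-120777661 for Oas3 and chr7:141009586-141010770 for Ifitm3, all on the minus strand. The 14 genes with a promoter entry and no core in this window were Cmpk2, Dtx3l, Herc6, Ifi35, Ifi44, Ifit2, Irf7, Irf9, Isg20, Oasl1, Oasl2, Samd9l, Sp100 and Xaf1.

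Total counts ran from 32117387 to 50445434 per library, and expression is given as CPM, the count as a share of the library's total scaled by a TMM factor. Kit, a growth factor receptor, and Cd34, a surface protein, both of progenitor cells and named after their values were seen, were detected in every group. Kit was at a mean of 422.4 CPM for wild type, 444.5 for Setd2 knockout, 206.2 for Srsf2 mutated and 163.2 for double mutant, and Cd34 at 294.7, 228, 215 and 158.1 CPM in that order. The 8 stem and progenitor markers together summed to 1060, 1001, 676.9 and 510 CPM, so their sum was lower in both groups with the Srsf2 mutation. Single markers could differ from the sum. Their log2 changes reached up to 0.43 in Srsf2 mutated against wild type and up to 3.06 in double mutant against Setd2 knockout. Transcripts that mark other blood lineages were also present and differed between genotypes. Summed over 10 erythroid genes the mean was 412 CPM for wild type, 1351 for Setd2 knockout, 6681 for Srsf2 mutated and 21660 for double mutant. The 8 B lymphoid genes summed to 114.4, 88.01, 1059 and 283.5 CPM in the same order, and the 10 neutrophil genes to 44670, 20210, 24560 and 36720 CPM. In bulk samples, fewer cells of a type and less RNA per cell cannot be told apart, and the part of these lineages in the results below was not tested. Setd2 itself, counted over the whole gene, was at 158.5 and 144.9 CPM (wild type), 230.8 and 212.6 CPM (Setd2 knockout), 212.6, 221.4 and 157.3 CPM (Srsf2 mutated) and 131.3, 129.6 and 130.2 CPM (double mutant). The libraries labelled Setd2 knockout were thus above wild type, and the double mutant libraries below all others. The deleted exons are not given in the sources used here, so a whole-gene count does not check the deletion, and each direction below that involves Setd2 rests on the label. Xist, expressed from the inactive X chromosome, was at 485.5 CPM in wild type and at 0.5982 to 7.405 CPM in the other groups, whereas the Y-linked gene Ddx3y was at 111.2 CPM in Srsf2 mutated and 123.6 in double mutant and had 0 counts in the other groups. Sex-linked transcripts therefore differ between the groups in every comparison with wild type or Setd2 knockout, the interaction included, and in those the genotype and this difference cannot be told apart. Double mutant and Srsf2 mutated libraries both express Ddx3y, but they were not alike in every sex-linked gene. Xist was at 2.54, 1.392 and 1.417 CPM in Srsf2 mutated and at 6.813, 7.938 and 7.465 in double mutant (log2 2.06, edgeR adjusted p = 3.72e-08). The Y-linked gene Eif2s3y was lower in the latter (log2 -0.26, adjusted p = 0.0197), and Ddx3y, Kdm5d and Uty were not called (log2 0.15, -0.14 and 0.22).

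The interferon-stimulated genes were at similar summed levels in 3 genotypes and near 2-fold higher in double mutant. The 45 genes summed to 1288 ± 26.8 CPM for wild type (SD, n = 2), 1225 ± 17.5 for Setd2 knockout (n = 2), 1244 ± 18 for Srsf2 mutated (n = 3) and 2534 ± 9.68 for double mutant (n = 3). No double mutant library overlapped any other library in this sum. The 2 genes with the largest gain in CPM, Ifitm3 and Rsad2, were then left out, a choice made after their values were seen. The other 43 summed to 1175 ± 26.3, 1151 ± 21.4, 1061 ± 6.87 and 1956 ± 3.75 CPM in the same order. The mean was highest in double mutant for 33 of the 45 genes, against 29.7% of all tested genes, and lowest in Srsf2 mutated for 20, against 17.1%. By role, double mutant held the highest mean for 9 of 9 restriction factors and antiviral enzymes and 3 of 3 transcription factors. It did so for 4 of 6 OAS genes and 3 of 4 IFIT genes, but for 2 of 5 nucleic acid sensors. Some of these ranks in CPM did not hold in the deposited FPKM values. Those divide by gene length, which is the same in every library, and by the library's total, with no TMM factor. The TMM factors of the CPM were 1.093 and 1.087 for Setd2 knockout and 0.9556, 0.9616 and 0.9591 for double mutant. There the mean of Bst2 was higher in Srsf2 mutated than in double mutant (82.69 against 77.98). Setd2 knockout was above double mutant for Trim30a (16.6 against 16.11), Stat2 (9.295 against 9.17) and Ifih1 (5.257 against 5.065).

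**Figure D1:**
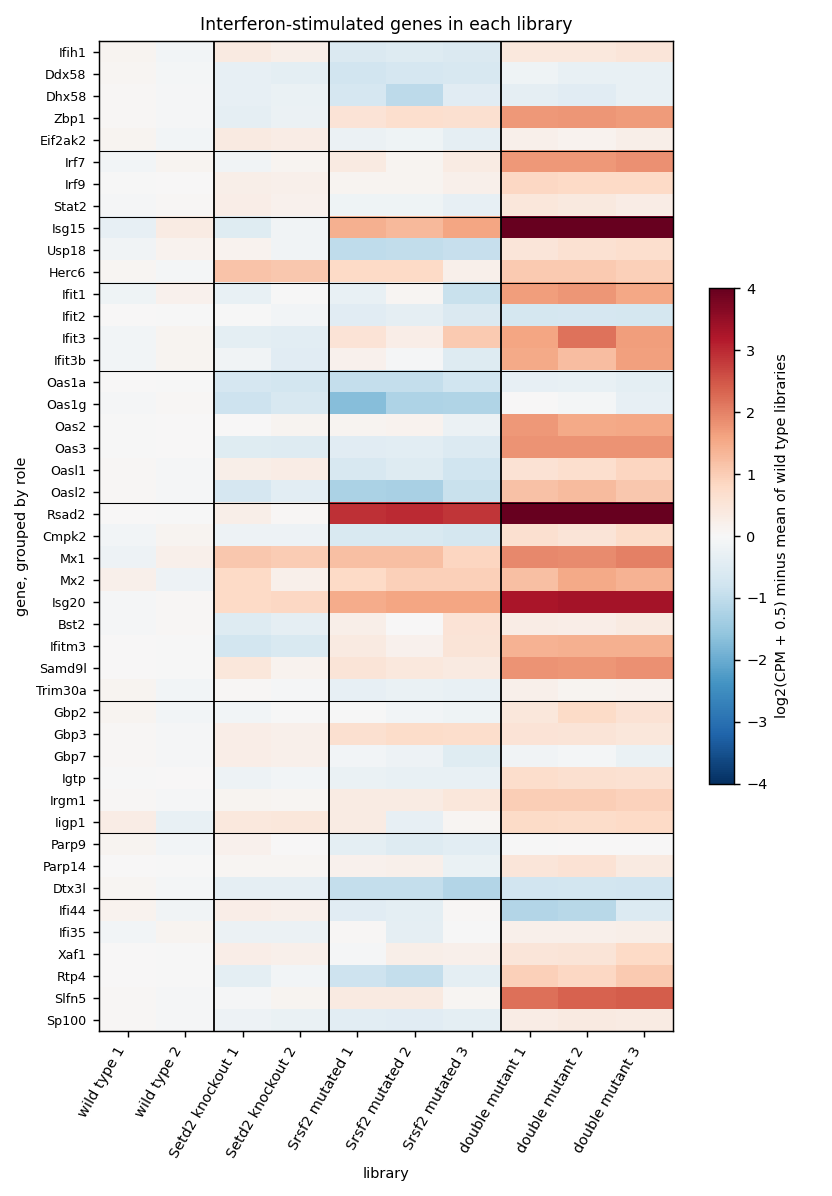
Heatmap of the 45 interferon-stimulated genes (rows, grouped by role) in the 10 libraries (columns), as log2(CPM + 0.5) minus the mean of the wild type libraries, with values past 4 drawn at 4. The 3 double mutant columns are red in most rows, deepest in Isg15, Rsad2 and Isg20, whereas the Srsf2 mutated columns hold both red and blue rows.

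**Figure D2:**
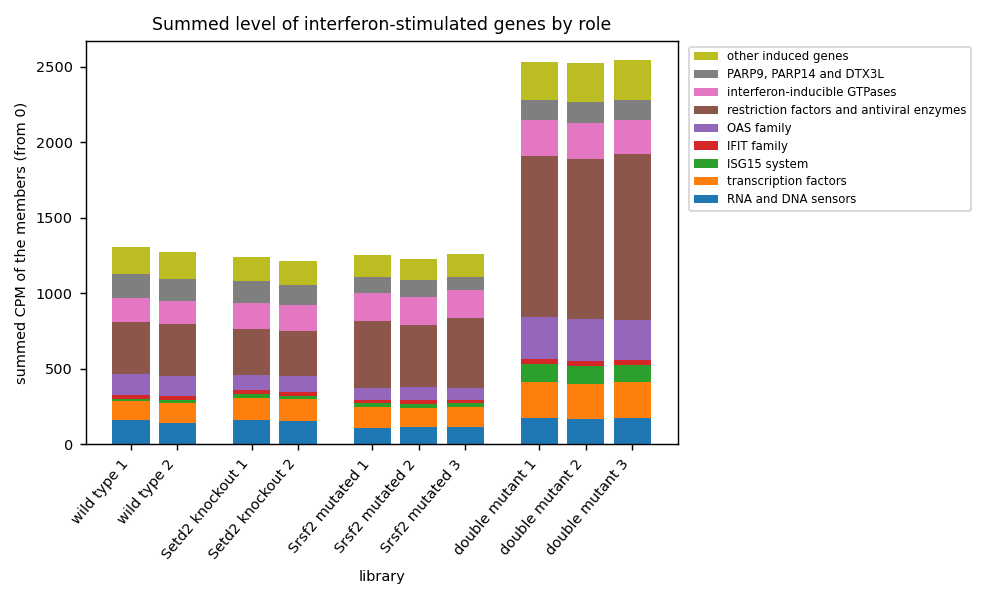
Stacked bars of the summed CPM of the 45 genes in each library, coloured by role, on an axis from 0. The 3 double mutant bars reach 2528 to 2545 CPM and the other 7 bars 1213 to 1307 CPM, and the restriction factors and antiviral enzymes form the largest block.

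Setd2 knockout on the Srsf2 mutated background was examined by comparing double mutant with Srsf2 mutated, the groups with 3 libraries each. Of the 45 genes, 39 were higher and 2 lower in double mutant by edgeR's quasi-likelihood test at a Benjamini-Hochberg adjusted p under 0.05, against 17.8% of all tested genes called higher and 15.9% called lower (33.8% in either direction). The median log2 fold change of the 45 was 0.82, and 0.00 over all tested genes. A called change of at least 2-fold upward was reached by 20 of them, and by 0 downward, against 7.14% and 2.8% of all tested genes. The libraries of the 2 groups did not overlap for 42 of the 45 genes, the exceptions being Bst2, Dhx58 and Gbp7. Over all tested genes the share without overlap was 45.4%.

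In the ISG15 system all 3 genes rose. Isg15 encodes the ubiquitin-like modifier that is conjugated to proteins during the interferon response. It was at 3.623 and 5.998 CPM in the wild type libraries, 3.176 and 4.211 in Setd2 knockout, 13.49, 12.09 and 14.93 in Srsf2 mutated, and 99.03, 94.36 and 94.39 in double mutant. Wild type and Setd2 knockout overlapped, Srsf2 mutated lay above them, and double mutant lay far above all. Against Srsf2 mutated, Isg15 was 7.11-fold higher in double mutant (log2 fold change 2.83 ± 0.135 SE, edgeR adjusted p = 1.48e-10). Usp18, the protease that removes ISG15 and damps receptor signaling, was at 2.676, 2.744 and 2.86 CPM in Srsf2 mutated and at 8.508, 9.185 and 9.615 in double mutant. Its wild type libraries, at 5.293 and 6.586 CPM, lay between these groups. Usp18 was 3.3-fold higher in double mutant (log2 1.72). Herc6, the mouse ligase that attaches ISG15, was 1.31-fold higher (edgeR adjusted p = 0.0468), the least certain call of the 39 beside that of Dhx58.

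The 3 transcription factors all rose. Irf7, which amplifies type I interferon production, was at 16.23 and 19.24 CPM in wild type, 16.12 and 18.92 in Setd2 knockout, 22.72, 19.19 and 22.5 in Srsf2 mutated, and 60.14, 59.83 and 64.64 in double mutant. The other 7 libraries lay close together and all below the 3 of double mutant. Irf7 rose 2.87-fold against Srsf2 mutated (log2 1.52 ± 0.0963 SE, edgeR adjusted p = 4.41e-09). Irf9, the DNA-binding subunit of the complex with STAT2, was at 66.46 and 67.43 CPM in wild type, 79.2 and 76.72 in Setd2 knockout, 72.4, 72.6 and 76.77 in Srsf2 mutated, and 120.3, 116.9 and 117.2 in double mutant. It rose 1.6-fold (log2 0.68 ± 0.06, adjusted p = 2.26e-07). Stat2 was at 42.65 and 44.64 CPM in wild type, 52.11 and 49.01 in Setd2 knockout, 38.73, 38.92 and 34.8 in Srsf2 mutated, and 59.52, 57.14 and 53.45 in double mutant. In CPM its double mutant libraries were above every library of the other groups, with the Setd2 knockout libraries next. In FPKM these 2 groups overlapped, at 9.607 and 8.983 in Setd2 knockout and 9.594, 9.268 and 8.647 in double mutant. Stat2 rose 1.51-fold against Srsf2 mutated (log2 0.60 ± 0.0755, adjusted p = 1.25e-05).

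**Figure D3:**
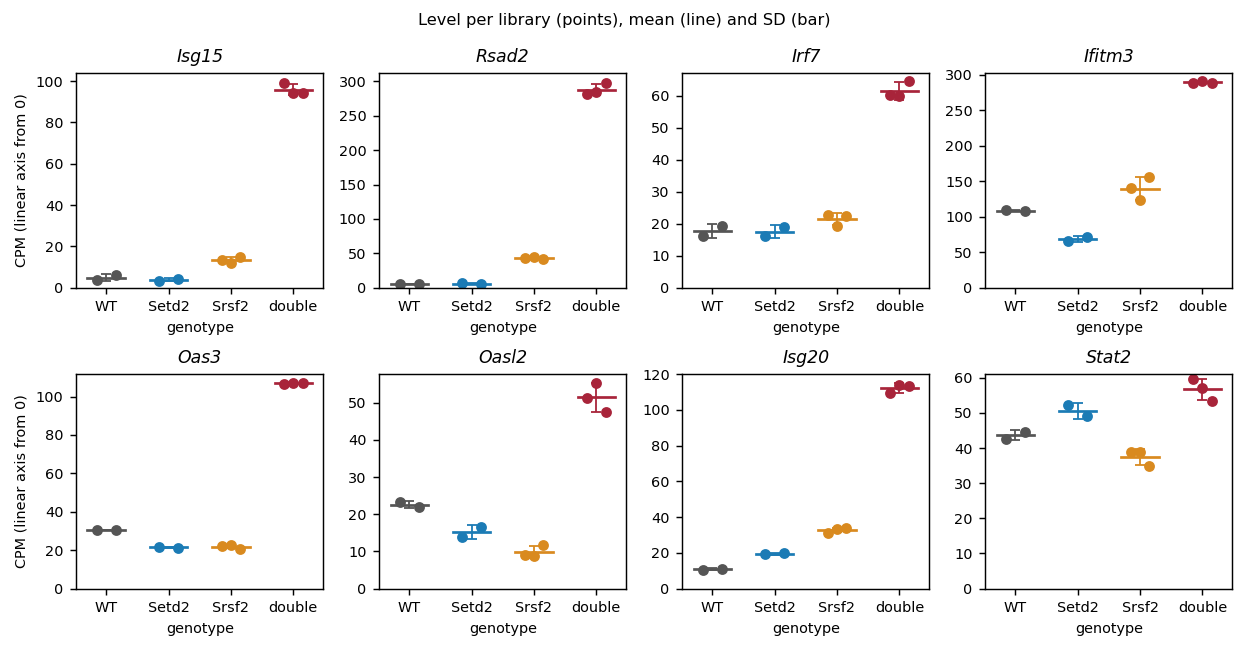
CPM of 8 interferon-stimulated genes in each library (points), with the group mean (line) and SD (bar), on linear axes from 0, for wild type (WT), Setd2 knockout (Setd2), Srsf2 mutated (Srsf2) and double mutant (double). Double mutant is the highest group in all 8 panels. Stat2 differs least, with Setd2 knockout at 49.01 and 52.11 CPM next to double mutant at 53.45 to 59.52.

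Among restriction factors and antiviral enzymes, 7 of 9 rose and 0 fell. Rsad2 encodes viperin, a radical SAM enzyme that makes a chain-terminating nucleotide. It was at 5.246 and 5.222 CPM in wild type, 6.179 and 5.459 in Setd2 knockout, 42.88, 45.04 and 41.21 in Srsf2 mutated, and 281.9, 285.2 and 297.4 in double mutant. These values form 3 steps, with wild type and Setd2 knockout on the lowest. The step from Srsf2 mutated to double mutant was 6.69-fold (log2 2.74 ± 0.0679 SE, edgeR adjusted p = 3.34e-13). Isg20, a 3′ to 5′ exonuclease, was at 10.63 and 11.15 CPM in wild type, 19.12 and 19.91 in Setd2 knockout, 31.36, 33.35 and 33.64 in Srsf2 mutated, and 109.2, 113.8 and 113.6 in double mutant, with no overlap between any of the groups. It rose 3.42-fold (log2 1.78). Ifitm3, a membrane protein that restricts viral entry, was at 108.9 and 108.2 CPM in wild type, 65.44 and 71.67 in Setd2 knockout, 140.7, 123.0 and 155.7 in Srsf2 mutated, and 288.4, 291.1 and 289.0 in double mutant. Setd2 knockout was here the lowest group and double mutant the highest. Ifitm3 rose 2.07-fold against Srsf2 mutated (log2 1.05 ± 0.0768, adjusted p = 2.29e-08). Bst2, which encodes tetherin, was at 57.12 and 61.76 CPM in wild type, 41.39 and 46.25 in Setd2 knockout, 70.43, 60.33 and 87.7 in Srsf2 mutated, and 72.95, 71.95 and 75.54 in double mutant. The Srsf2 mutated libraries surrounded the double mutant ones, and no change was called (log2 0.01 ± 0.105, adjusted p = 0.938); the sign turned negative under upper-quartile scaling. Samd9l rose 2.58-fold, Cmpk2 2.41-fold, Mx1 1.86-fold and Trim30a 1.36-fold, and Mx2, annotated as a polymorphic pseudogene, was not called (log2 0.55, adjusted p = 0.065).

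All 6 OAS genes, whose products make or relate to the 2′-5′ oligoadenylate that activates RNase L, rose. Oasl2 was at 23.19 and 21.83 CPM in wild type, 13.85 and 16.59 in Setd2 knockout, 9.048, 8.858 and 11.79 in Srsf2 mutated, and 51.37, 55.33 and 47.62 in double mutant. The order of the other groups was thus wild type, Setd2 knockout and Srsf2 mutated, with no overlap. Oasl2 rose 5.21-fold against Srsf2 mutated (log2 2.38 ± 0.116 SE, edgeR adjusted p = 1.9e-10). Oas3 was at 30.3 and 30.41 CPM in wild type, 21.6 and 21.29 in Setd2 knockout, 22.0, 22.58 and 20.78 in Srsf2 mutated, and 106.3, 106.9 and 107.3 in double mutant. It rose 4.9-fold (log2 2.29). The remaining rises were 3.05-fold for Oas2, 2.65-fold for Oasl1, 2.57-fold for Oas1g and 1.48-fold for Oas1a. Oas1a and Oas1g did not exceed their wild type means of 43.32 and 9.527 CPM, with double mutant means of 34.12 and 8.765.

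The 4 IFIT genes, among them Ifit1, whose product binds viral RNA lacking host cap marks, behaved unequally. Ifit1 was at 2.564 and 3.34 CPM in wild type, 2.268 and 2.857 in Setd2 knockout, 2.268, 3.148 and 1.341 in Srsf2 mutated, and 10.37, 11.04 and 9.594 in double mutant, and it rose 4.54-fold. Ifit3b was at 0.1647 and 0.2587 CPM in wild type, 0.1512 and 0.02116 in Setd2 knockout, 0.2948, 0.1816 and 0 in Srsf2 mutated, and 1.532, 1.159 and 1.737 in double mutant. Its fold is imprecise because the first 7 libraries hold few counts (log2 3.17 ± 0.742 SE, edgeR adjusted p = 0.00336). Ifit3 rose 2.62-fold. Ifit2 was at 24.79 and 23.99 CPM in wild type, 17.8, 18.89 and 16.02 CPM in Srsf2 mutated and at 14.9, 15.11 and 14.68 in double mutant. Its change did not pass (log2 -0.24, adjusted p = 0.0515), and the libraries did not overlap. Genes next to each other on chromosome 19 between positions 34550694 and 34650009 (GRCm38) thus include 3 that rose and 1 that did not.

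All 5 nucleic acid sensors rose, with a median log2 fold change of 0.45, against 1.51 for the OAS genes. Zbp1, a sensor of Z-form nucleic acid, rose 2.21-fold and Ifih1, the MDA5 sensor of long double-stranded RNA, 2.03-fold. Eif2ak2 (the kinase PKR) and Ddx58 (RIG-I) rose 1.36-fold each, and Dhx58 (LGP2) 1.28-fold with overlapping libraries (edgeR adjusted p = 0.0483). The interferon-inducible GTPases, which attack vacuoles of intracellular pathogens, were split. Igtp (1.95-fold), Iigp1 (1.76-fold), Gbp2 (1.65-fold) and Irgm1 (1.51-fold) rose, Gbp7 was not called (log2 0.09), and Gbp3 fell. Gbp3 was at 44.27 and 40.81 CPM in wild type, 50.66 and 48.48 in Setd2 knockout, 66.6, 71.59 and 69.1 in Srsf2 mutated, and 62.19, 60.88 and 58.29 in double mutant. Its log2 fold change was -0.19 (adjusted p = 0.0386). Parp9, Parp14 and Dtx3l, which act in ADP-ribosylation and ubiquitination, rose 1.38-fold, 1.35-fold and 1.21-fold. Of the remaining 6 genes, Slfn5 rose 4.37-fold, Rtp4 3.32-fold, Sp100 1.69-fold, Xaf1 1.42-fold and Ifi35 1.25-fold. Ifi44 fell, from 2.902, 3.067 and 4.353 CPM in Srsf2 mutated to 1.565, 1.662 and 2.688 in double mutant (log2 -0.79 ± 0.237, adjusted p = 0.0174). Its wild type libraries, at 4.658 and 3.693 CPM, and Setd2 knockout libraries, at 5.12 and 4.824 CPM, were all above those of double mutant. The fall of Gbp3 was lost without Srsf2 mutated replicate 2 or any 1 double mutant library, and that of Ifi44 without Srsf2 mutated replicate 3 or double mutant replicate 1 or 2. Of the 39 rises, those of Dhx58, Herc6 and Ifi35 were lost in at least 1 of the other fits tried, and 36 members kept their call in all of them.

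**Figure D4:**
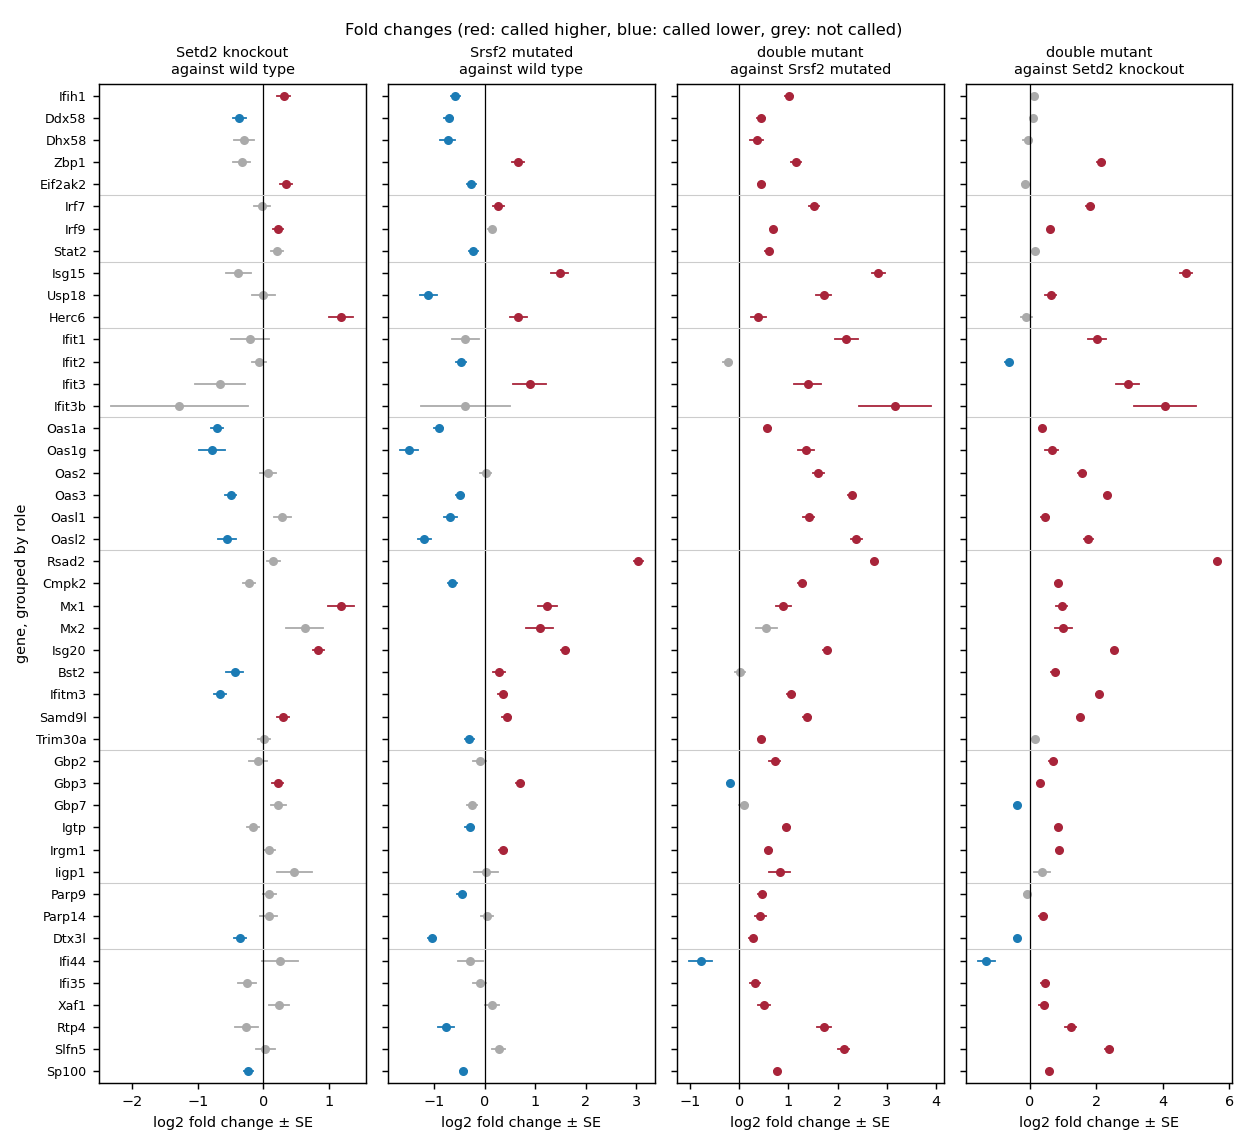
Log2 fold change with its SE for the 45 genes (rows, grouped by role) in 4 comparisons (panels), coloured red where called higher, blue where called lower and grey where not called. In the panel of double mutant against Srsf2 mutated, 39 points are red and 2 blue, and in the panel of Setd2 knockout against wild type 8 are red and 9 blue. The horizontal scale differs between panels.

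Setd2 knockout on the wild type background gave a mixed picture. In the libraries labelled Setd2 knockout, 8 of the 45 genes were higher and 9 lower than in wild type by edgeR's test, shares close to the 18.7% and 19.9% called over all tested genes (38.6% in either direction). The median log2 fold change of the 45 was 0.00, and 0.04 over all genes. Mx1, a GTPase against influenza virus, was at 1.953 and 2.752 CPM in wild type and at 5.509 and 5.184 in Setd2 knockout, a rise of 2.27-fold (log2 1.18 ± 0.2 SE, edgeR adjusted p = 0.000242). Herc6 rose from 6.657 and 5.833 to 14.5 and 13.73 CPM (2.26-fold, adjusted p = 0.0001). The levels of Isg20 given above correspond to a rise of 1.79-fold (adjusted p = 2.9e-06). Eif2ak2 went from 53.42 and 46.43 to 64.6 and 61.36 CPM (1.26-fold, adjusted p = 0.0105), and Irf9 rose 1.16-fold. The genes that rose were thus 2 sensors, 1 transcription factor, 1 gene of the ISG15 system, 3 restriction factors and 1 GTPase. The OAS family fell in 4 of 6 members. Oas1g fell from 9.269 and 9.784 to 5.142 and 5.988 CPM (log2 -0.78, adjusted p = 0.00579), and Oas1a from 44.04 and 42.6 to 27.07 and 26.07 CPM (log2 -0.71, adjusted p = 2.42e-05). Oasl2 (log2 -0.56), Oas3 (log2 -0.50), Ifitm3 (log2 -0.66) and Bst2 (log2 -0.44) also fell, at the library values given above. Isg15 (log2 -0.38, adjusted p = 0.139), Rsad2 (log2 0.15, adjusted p = 0.256) and Stat2 (log2 0.21, adjusted p = 0.0802) were not called. Irf7 was not called either (log2 -0.02, adjusted p = 0.929), and its sign turned positive under upper-quartile scaling. That scaling put 59.5% of all calls on the higher side, against 48.4% here, with 11 members higher and 8 lower. Without Setd2 knockout replicate 1, 3 genes were called higher and 4 lower, and without wild type replicate 2, 3 were called higher. The calls of Mx1, Herc6, Isg20, Oas1a, Oas3 and Ifitm3 were kept in all fits tried, and the other 11 were lost in at least 1.

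The difference between the 2 settings was tested as the interaction, which is the log2 change from Srsf2 mutated to double mutant minus the log2 change from wild type to Setd2 knockout. It was above 0 for 34 of the 45 genes and below 0 for 3 by edgeR's test, against 16.7% and 15.2% of all tested genes (31.9% in either direction). The median interaction was 0.81 over the 45 genes and -0.07 over all genes. It was 4.44 ± 1.28 for Ifit3b (SE, edgeR adjusted p = 0.014), 3.21 ± 0.236 for Isg15 (adjusted p = 5.11e-08), 2.95 ± 0.179 for Oasl2 (adjusted p = 6.14e-09) and 2.79 ± 0.109 for Oas3 (adjusted p = 1.19e-10). All 6 OAS genes and all 3 transcription factors had an interaction above 0, with Irf7 at 1.54, Irf9 at 0.46 and Stat2 at 0.38. Rsad2 stood at 2.59, Ifitm3 at 1.71 and Bst2 at 0.45 (adjusted p = 0.0489). The interaction was below 0 for Ifi44 (-1.04), Herc6 (-0.79) and Gbp3 (-0.41). Mx1, which rose in both settings, had no called interaction (-0.29, adjusted p = 0.412). Under upper-quartile scaling the interaction was above 0 for 28 members and below 0 for 3, the median over all genes was -0.211, and 37.6% of all calls were above 0, against 52.4% here. The calls of Ifit3b, Stat2, Bst2, Herc6, Ifi44, Dhx58, Ifi35, Parp9 and Trim30a were each lost in at least 1 fit, and without wild type replicate 2 the count below 0 was 1.

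These 2 Setd2 comparisons share no library. By their calls, 7 genes rose in both (Eif2ak2, Herc6, Ifih1, Irf9, Isg20, Mx1 and Samd9l), a pattern that 4.77% of all tested genes had. A further 8 fell on the wild type background and rose on the Srsf2 mutated one (Ddx58, Dtx3l, Ifitm3, Oas1a, Oas1g, Oas3, Oasl2 and Sp100), and 24 were not called in the former and rose in the latter. These patterns were found in 4.94% and 8.1% of all tested genes. None of the 45 fell in both, against 5.71% of all tested genes.

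**Figure D5:**
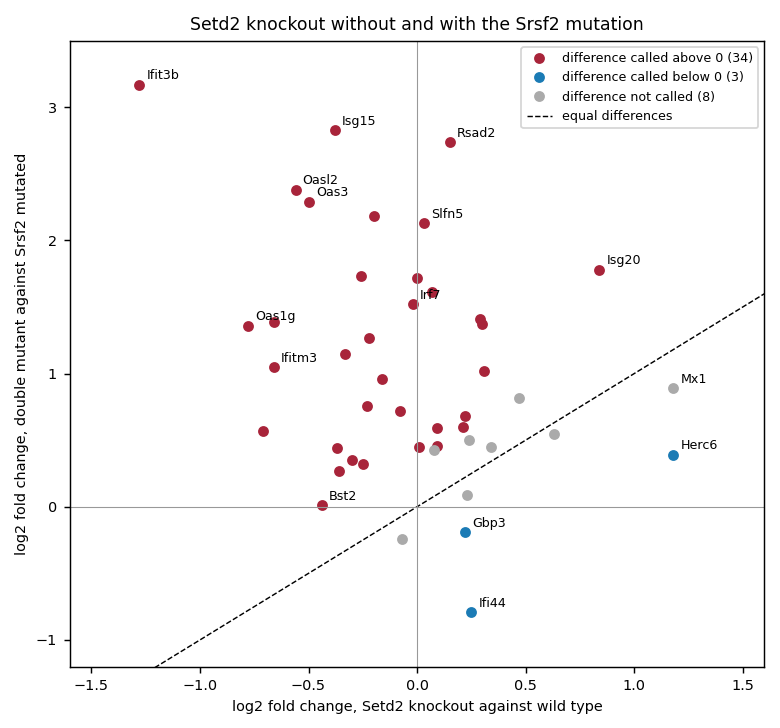
Log2 fold change of the 45 genes in Setd2 knockout against wild type (x axis) and in double mutant against Srsf2 mutated (y axis), with the line of equal differences dashed. The 34 red points, where the interaction was called above 0, lie above the line, and the 3 blue points, Herc6, Gbp3 and Ifi44, lie below it.

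The Srsf2 mutation alone was compared with wild type, and the genes differed in both directions. Of the 45, 14 were higher and 19 lower in Srsf2 mutated by edgeR's test, against 28.5% and 27.8% of all tested genes (56.3% in either direction). As shares of the 45 these were 31.1% and 42.2%, the former close to that of all tested genes. The median log2 fold change was -0.22, and 0.08 over all genes. Restriction factors and antiviral enzymes made up 7 of the 14 that rose. Rsad2 rose 8.22-fold (log2 3.04 ± 0.09 SE, edgeR adjusted p = 3.04e-13), Isg20 3.01-fold, Isg15 2.8-fold (log2 1.49 ± 0.168, adjusted p = 1.81e-06) and Mx1 2.37-fold, to 5.964, 6.053 and 4.657 CPM. Ifitm3 (log2 0.36), Bst2 (log2 0.29) and Irf7 (log2 0.27, adjusted p = 0.0436) rose less, and the libraries of Bst2 and Irf7 overlapped. Irf9 was not called (log2 0.14, adjusted p = 0.0833). Among those that fell, 5 were OAS genes and 4 were sensors. Oas1g fell to 2.562, 3.793 and 3.847 CPM (log2 -1.49, adjusted p = 4.37e-06), and Oasl2 by a log2 change of -1.19. Usp18 fell by a log2 change of -1.11. Dtx3l fell from 80.24 and 73.43 to 39.55, 39.02 and 33.64 CPM (log2 -1.04). Stat2 fell by less (log2 -0.22, adjusted p = 0.0366), and its call, like those of Bst2 and Irf7, was lost in at least 1 other fit. Rsad2 and Cmpk2 are neighbours on chromosome 12 between positions 26442746 and 26479837, and they went opposite ways, with Cmpk2 at log2 -0.64 (adjusted p = 1.43e-05).

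The Srsf2 mutation on the Setd2 knockout background was examined by comparing double mutant with Setd2 knockout. Here 32 of the 45 genes were higher and 4 lower in double mutant by edgeR's test, against 26% and 25.8% of all tested genes (51.8% in either direction). The median was 0.65 for the 45 and 0.01 for all genes on the log2 scale. This comparison shares its double mutant libraries with the one against Srsf2 mutated. Of the 36 calls, 9 were lost in at least 1 other fit (Gbp3, Ifi35, Mx2, Oas1a, Oas1g, Oasl1, Parp14, Usp18 and Xaf1), and the count called higher was 26 without Setd2 knockout replicate 1 and 24 without replicate 2. Rsad2 differed by 49.5-fold (log2 5.63 ± 0.0965 SE, edgeR adjusted p = 4.14e-16), Isg15 by 25.9-fold (log2 4.70 ± 0.182, adjusted p = 4.15e-12) and Ifit3b by a log2 of 4.06 ± 0.943 (adjusted p = 0.00181). Ifit3 was at 0.6481 and 0.6136 CPM in Setd2 knockout and at 3.977, 6.298 and 4.28 in double mutant, a rise of 7.68-fold. Ifitm3 rose 4.22-fold, Irf7 3.51-fold, Bst2 1.68-fold and Irf9 1.52-fold, and Stat2 was not called (log2 0.16, adjusted p = 0.114). Of the 5 sensors, Zbp1 alone was called (4.37-fold). The 4 genes that were lower were Ifi44 (log2 -1.32), Ifit2 (log2 -0.64), Dtx3l (log2 -0.40) and Gbp7 (log2 -0.39). Ifit2 was at 23.96 and 22.6 CPM in Setd2 knockout and above all 3 double mutant libraries. Gbp7 was at 42.82 and 40.9 CPM in Setd2 knockout and at 32.43, 33.44 and 29.69 in double mutant. Dtx3l was at 59.67 and 60.16 CPM in Setd2 knockout and at 44.69, 45.9 and 45.14 in double mutant.

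Genes with and without the ISRE core in the promoter window were both mostly higher in double mutant than in Srsf2 mutated, and the difference between them was not tested. The median log2 fold change was 0.96 over the 21 genes with it, of which 18 rose, 0.72 over the 14 without it, of which 12 rose, and 0.86 over the 10 with no promoter in the table, of which 9 rose. In Srsf2 mutated against wild type the medians were -0.25, -0.19 and 0.02.

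Levels can be compared between genes on the deposited FPKM scale, which divides by gene length. Ifitm3 had the highest FPKM of the 45 in each genotype, at 150.1 ± 1.45 for wild type (SD), 110.1 ± 6.63 for Setd2 knockout, 211.6 ± 21 for Srsf2 mutated and 409.2 ± 3.29 for double mutant. Bst2 was next in the first 3 genotypes. In double mutant Isg15 took that place at 130.8 FPKM, followed by Bst2 at 77.98, Rsad2 at 63.71 and Isg20 at 57.82. In wild type Isg15 was at rank 16, Isg20 at 21 and Rsad2 at 36 of 45. Ifit3b was lowest in the first 3 genotypes and Ifi44 in double mutant, at 0.3083 FPKM.

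Several members share sequence with a close copy, so their counts can be split or mixed between copies. Of the 75-base windows of Oas1a transcripts, 47.6% also occur in Oas1g, and 41.1% of those of Ifit3 occur in Ifit3b. In double mutant against Srsf2 mutated the members of each of these pairs were called in the same direction. Exons of Parp9 and Dtx3l overlap by 458 bases on opposite strands and those of Igtp and Irgm2 by 162 bases on 1 strand, and the strand setting of the counting is not given in the sources used here.

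Genes of the pathway that are not on the list were taken from lists by role. Of 21 interferon ligand genes, Ifng alone had enough counts to be tested. Ifnb1, which encodes interferon beta, had 0 counts in every wild type, Setd2 knockout and Srsf2 mutated library, which allows up to 0.0353, 0.0321 and 0.0225 CPM over the group (3 counts), and was at 0.06519, 0.4811 and 0.1034 CPM in double mutant. Such a limit covers the error of counting and no other. Ifng, which encodes interferon gamma, was at 0.3855, 0.08071 and 0.3037 CPM in Srsf2 mutated and at 1.499, 1.159 and 1.034 in double mutant (log2 2.26 ± 0.669 SE, edgeR adjusted p = 0.0165), with 2 counts in wild type and 0 in Setd2 knockout. Of the 21, 14 had 0 counts in double mutant, 17 in Srsf2 mutated, 18 in wild type and 19 in Setd2 knockout.

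Of 9 receptor and kinase genes, 5 rose and 0 fell between Srsf2 mutated and double mutant, with a median log2 fold change of 0.25. Ifnar1 was not called (log2 0.11, adjusted p = 0.228), and Ifnar2 rose from 59.68, 55.04 and 58.01 to 81.79, 74.7 and 79.15 CPM (log2 0.45, edgeR adjusted p = 7.51e-05). Jak1 (log2 0.42), Il10rb (log2 0.54) and Ifnlr1 (log2 1.04), which encodes the type III receptor chain, rose too. Among 9 STAT and IRF genes outside the list, 6 were higher and 2 lower. Irf1, a factor induced by interferon gamma, was at 42.23 and 42.74 CPM in wild type, 36.4 and 36.14 in Setd2 knockout, 242.8, 239.8 and 266.3 in Srsf2 mutated, and 291.7, 301.9 and 296.3 in double mutant. Its large step was between wild type and Srsf2 mutated (log2 2.55 ± 0.075, adjusted p = 3.04e-13), with a further log2 of 0.25 to double mutant. Irf4 and Irf8 fell (log2 -0.66 and -0.37). Irf4 was nevertheless far higher in Srsf2 mutated than in wild type (log2 4.91, edgeR adjusted p = 1.42e-13). It was also higher in double mutant than in Setd2 knockout (log2 3.70).

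Of 12 genes that act upstream of interferon production, 5 rose and 1 fell in double mutant against Srsf2 mutated, led by Tlr7, an endosomal sensor of single-stranded RNA (log2 0.87, edgeR adjusted p = 8.94e-05), the adaptor Myd88 (log2 0.39) and Mb21d1, which encodes cGAS (log2 0.39). Of 12 negative regulators, 3 rose and 1 fell, with Nlrc3 at log2 -1.65, the phosphatase gene Ptpn6 at 0.32 and the RNA editing enzyme gene Adar at 0.30. That is 33.3% called in either direction, close to the 33.8% of all tested genes. The share was 50% for the genes upstream of interferon production, 55.6% for the receptors and kinases, 88.9% for the STAT and IRF genes and 44.4% for the interferon-gamma type genes. Socs3 and Socs1, feedback inhibitors of JAK signaling, were already high in Srsf2 mutated. Their log2 changes against wild type were 6.28 and 3.46, and they were not called between Srsf2 mutated and double mutant. Of 18 tested interferon-gamma type genes outside the list, 6 rose and 2 fell, and among the rises were those of the GTPase gene Irgm2 (log2 1.14) and the chemokine gene Cxcl9 (log2 1.46). Cxcl10, another chemokine gene, was at 2.917 and 1.623 CPM in wild type, 3.197 and 3.301 in Setd2 knockout, 26.1, 24.52 and 28.02 in Srsf2 mutated, and 108.3, 101.9 and 108.6 in double mutant, steps like those of Rsad2. Its log2 fold change between the last 2 groups was 2.02 ± 0.112 (adjusted p = 8.55e-10).

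Markers of other cell types moved beside the members. Plasmacytoid dendritic cells, the chief producers of type I interferon, were looked for with 12 markers, Bst2 among them. Their summed level was 334.2 to 344.9 CPM in the Srsf2 mutated libraries and 287.4 to 296.3 CPM in double mutant. Of the 12, 4 were called higher and 3 lower, against 17.8% and 15.9% of all tested genes. The median log2 fold change of the 12 was -0.08. All 4 rises were at least 2-fold, and 0 of the falls were. Siglech was 1 of the 4 that rose and was named after its values were seen. It does not stand for the list, whose log2 changes ran from -0.62 to 4.51 and whose sum was lower. Siglech was at 1.451, 0.9887 and 1.139 CPM in Srsf2 mutated and at 6.356, 4.942 and 7.465 in double mutant (log2 2.39 ± 0.24 SE, edgeR adjusted p = 9.63e-07). In the same comparison, beside the same shares of all tested genes, 10 of 10 erythroid genes and 9 of 12 monocyte and macrophage genes were higher. Lower were 8 of 8 B lymphoid genes and 7 of 8 stem and progenitor genes. The remaining stem and progenitor gene, 1 of the 8, was higher (log2 1.19). Of 10 neutrophil genes 6 were higher and 4 lower, and of 10 T and NK cell genes 4 were higher and 1 lower. The T and NK cell sum was 187.8 to 227.8 CPM in Srsf2 mutated and 177.2 to 182.2 in double mutant. The monocyte and macrophage sum was 1340 to 1468 CPM in Srsf2 mutated and 1818 to 1935 in double mutant. In wild type it was 1855 to 1875 CPM. The part of these cell types in the levels of the members was not tested.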

How the data were processed

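The 10 bulk RNA-seq libraries were analysed from 3 deposited tables, each pairing 2 genotypes. Per the file headers, each table lists whole-number read counts per gene and library, and the FPKM values deposited beside them equal the count over gene length and library total. The authors' log2 fold change, p-value and mean-expression score columns were deposited in the same tables and support no statement here. The submitters' processing notes name HISAT2 2.0.5, featureCounts 2.0.1, HTSeq 0.9.1 and DESeq2 1.22.2 among others, with no role for each, and builds mm10 and GRCm38. Strand and read length are not given in the sources used here. The tables were joined by gene (5 libraries stand in more than 1 table, with 0 differing counts). Genes were kept by filterByExpr (19289 of 55421), scaled by TMM and fitted over all 4 groups in edgeR 4.0.16 (quasi-likelihood, R 4.3.3), with Benjamini-Hochberg adjustment over all genes and a threshold of 0.05. The fit was tested on simulated data. Values per library are given for up to 4 called members of largest change per direction and comparison with a mean of at least 1 CPM, and for Isg15, Irf7, Irf9, Stat2, Rsad2, Ifitm3 and Bst2, as well as for members they are compared with. Of each pathway list, up to 3 called genes of smallest adjusted p are named, and Irf1, Ifnb1, Ifng, Ifnar1 and Ifnar2 always; 1 gene that this rule names is not reported here. The members and lists were chosen with earlier results of these data known. Alternatives were RLE and upper-quartile scaling, other filters, DESeq2 1.42.0, a fit of the compared groups alone, a replicate block and leaving out each library. The 3 single-cell samples were not analysed here.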

Additional observations from a re-analysis of the deposited data

Results flagged for a closer look

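For 37 of the 45 genes, the log2 change beside the Setd2 knockout label differed between the Srsf2 mutated and the wild type background. The test was the interaction term of the edgeR fit (Benjamini-Hochberg adjusted over all genes). Sex-linked transcripts differ between these groups too, and the genotype and this difference cannot be told apart. The values below are log2 changes on the Srsf2 mutated background minus those on the wild type background, and 31.9% of all tested genes had a called interaction. Among the ISG15 system and the IFIT genes the values were 3.21 for Isg15, 1.72 for Usp18, 2.39 for Ifit1, 2.05 for Ifit3 and 4.44 for Ifit3b. The OAS genes gave 1.27 for Oas1a, 2.14 for Oas1g, 1.54 for Oas2, 2.79 for Oas3, 1.12 for Oasl1 and 2.95 for Oasl2. The transcription factors gave 1.54 for Irf7, 0.46 for Irf9 and 0.38 for Stat2. Of the restriction factors and antiviral enzymes, Rsad2 stood at 2.59, Cmpk2 at 1.49, Isg20 at 0.93, Bst2 at 0.45, Ifitm3 at 1.71, Samd9l at 1.07 and Trim30a at 0.44. The sensors gave 0.71 for Ifih1, 0.81 for Ddx58, 0.65 for Dhx58 and 1.47 for Zbp1. The GTPases gave 0.80 for Gbp2, 1.12 for Igtp and 0.50 for Irgm1. Parp9 stood at 0.37, Dtx3l at 0.63, Ifi35 at 0.57, Rtp4 at 1.99, Slfn5 at 2.10 and Sp100 at 0.99. The interaction was below 0 for 3 genes, with Herc6 at -0.79, Gbp3 at -0.41 and Ifi44 at -1.04. Of these 37 calls, 28 were kept in all alternative fits.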

How the results depend on the processing

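In double mutant against Srsf2 mutated, 36 to 39 members were called higher in all fits tried, and the median log2 fold change stayed between 0.74 and 0.90. The count called lower went from 2 to 1 with no filter on low counts, and lay between 0 and 3 when 1 library was left out. For the interaction, 27 to 35 members were above 0, and 1 to 3 were below 0 with 1 library left out. In double mutant against Setd2 knockout, 24 to 32 members were called higher and 4 lower with 1 library left out. Setd2 knockout against wild type depended most on single libraries. With 1 library left out, 3 to 10 members were called higher and 4 to 11 lower, and over all genes 2392 to 4305 were called higher and 2400 to 4498 lower. In that comparison the log2 fold change of Irf7 was 0.0735 with upper-quartile scaling, 0.0406 with the stricter filter and 0.0013 with the compared groups alone, and ran from -0.14 to 0.11 with 1 library left out. That of Isg15 ran from -0.70 to 0.0281. The Bst2 difference between double mutant and Srsf2 mutated was -0.0404 with upper-quartile scaling and ran from -0.10 to 0.17 with 1 library left out. The cause of these shifts was not tested. With 2 libraries in wild type and Setd2 knockout, leaving out 1 assumes that the lone library varies like the other groups. Low counts limit Ifit3b and Ifng.

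With the replicate number as a block, 39 members were higher and 2 lower in double mutant against Srsf2 mutated, 7 and 9 in Setd2 knockout against wild type, 11 and 18 in Srsf2 mutated against wild type, and 35 and 3 had an interaction above and below 0. Over all tested genes, the correlations of the deviations from the group means between libraries of the same number ran from -0.0252 to 0.038. In a group of 2 libraries these deviations mirror each other. Whether libraries of the same number shared more than the number was not tested.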
